A study of Mus musculus with 12 samples.

Results

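The serine/arginine-rich (SR) splicing factors Srsf1, Srsf2, Srsf3, Srsf4, Srsf5, Srsf6, Srsf7, Srsf10 and Srsf11, and the splicing factor Slu7, were examined in the adult mouse hippocampus. These 10 genes were chosen by name from 35580 genes, and their isoforms were taken from the transcripts that GENCODE vM21 assigns to them, 79 of the 115270 transcripts in the table. RNA-Seq was performed on hippocampal RNA of 12 males (C57BL/6 by the labels, C57BL/6J in the methods) aged 70 days, with 3 mice in each of 4 groups. Control mice had dams that drank only water and were left with them undisturbed. Ethanol mice had dams with free choice of 10% ethanol in water through gestation and on to postnatal day 10, which overlaps the days of separation. Stress mice were taken from the dam and kept alone 3 h daily between postnatal days 2 and 14, and ethanol + stress mice received both treatments. Litters were divided between separated and undisturbed pups and the labels name no litter. Control and stress mice, ethanol and ethanol + stress mice, or mice of the same group may therefore be littermates. Ethanol was given to the dam, so the 3 mice of a group may not be independent exposures. The p-values measure the spread between mice only.

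SR proteins bind short sequences in exons through RNA recognition motifs and recruit the splicing machinery through a domain rich in serine and arginine. Slu7 acts later, in the choice of the 3′ splice site at the second step of splicing. Several SR genes are known to make isoforms that keep an intron, which tend to stay in the nucleus, and isoforms with an early stop codon that are removed by nonsense-mediated decay (NMD), by which an SR protein can lower its own mRNA.

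The 79 transcripts comprised 28 protein-coding, 23 retained-intron, 13 NMD and 15 processed transcripts by their annotation, of 86 annotated for these genes. Srsf7 was represented by 1 of its 8 annotated transcripts and its other isoforms were not analysed here. Slu7 and Srsf10 have no annotated retained-intron or NMD isoform. Of the 23 retained-intron isoforms, 6 hold a whole intron of the coding isoform with the highest mean of the same gene, and 8 of the 13 NMD isoforms carry their stop codon in an exon that this coding isoform lacks.

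The sequences that define the isoforms behind the comparisons below were read 5′ to 3′ from the GRCm38 genome at GENCODE vM21 boundaries. All 3 retained-intron isoforms of Srsf5 keep the same intron of 1229 bases, and its start (chr12:80947851-80947880, plus strand) and end (chr12:80949080-80949109, plus strand) are shown with the intron in capitals.
Srsf5 intron start: agagtcagctggcagGTTTGTTGAAATACA
Srsf5 intron end: TTGTCTTGTGTTAAGgatctcaaagatttc

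The main retained-intron isoforms of Srsf2 and Srsf6 each keep 1 intron, of 1059 and 1283 bases, and that of Srsf3 keeps 2. The starts of the Srsf2 intron (chr11:116852006-116852035, minus strand), the longer Srsf3 intron (2150 bases, chr17:29038610-29038639, plus strand) and the Srsf6 intron (chr2:162932128-162932157, plus strand) are shown in the same way, and each begins with GT as the Srsf5 intron does.
Srsf2 intron start: cttcctaagaaaatgGTAATGTCTGCGGGA
Srsf3 intron start: tccacctcggcgcagGTACTTGAGAGAGCA
Srsf6 intron start: gctacggaagccgcaGTGAGTCCTTACCCC

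The NMD isoforms Srsf3-201, Srsf4-204, Srsf6-201 and Srsf11-212 take in exons of 456, 188, 268 and 117 bases that hold the stop codon, shown here in capitals at the end of the reading frame. The windows lie at chr17:29039458-29039487 (Srsf3-201, plus strand), chr4:131884361-131884390 (Srsf4-204, plus strand), chr2:162932937-162932966 (Srsf6-201, plus strand) and chr3:158023310-158023339 (Srsf11-212, minus strand). The stop codon is TGA in Srsf3-201 and Srsf11-212 and TAG in Srsf4-204 and Srsf6-201. Srsf4-203 has the same stop codon in an exon of 207 bases, and the other 2 NMD isoforms of Srsf11 with such an exon have theirs in another one, of 109 bases.
Srsf3-201: accatcatgtctcttctcaccaccctcTGA
Srsf4-204: gtaacccggttgtctcatgccccagctTAG
Srsf6-201: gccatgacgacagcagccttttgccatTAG
Srsf11-212: gttgttcataaaacagcttttgaaagtTGA

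The values were taken as TPM, the abundance of a transcript relative to all others, corrected for transcript length, with a scaling between libraries, since their sums differ between libraries. For genes with only 1 transcript, low values fell near whole multiples of 1 read pair, which gave a depth of 12060000 to 14920000 read pairs per library. All 8 marker genes of hippocampal neurons had a mean of 0.1 TPM or more, and they summed to 791 to 1043 TPM. The same held for all 6 markers of oligodendrocytes (2824 to 6167 TPM), all 5 of thalamus (24.6 to 46.3 TPM) and all 5 of striatum (42.8 to 73.1 TPM). Detection alone therefore does not show how pure the dissection was. The ethanol replicate 2 and ethanol + stress replicate 2 and 3 libraries stood apart, with the highest sums of values (1126490 to 1173650, against 889222 to 1024270 in the others) and lower values for longer transcripts (-0.08 to -0.04 on the log2 scale per doubling of length, against -0.01 to 0.05). The 5 blood markers, all detected, summed to 1603 to 2022 TPM in control mice, 3146 to 6815 in ethanol, 2593 to 3392 in stress and 2454 to 6480 in ethanol + stress mice, and the 7 choroid plexus markers ranged from 39.2 to 7256 TPM over the libraries. Scaling to a common total and, for gene sums and isoforms only, removal of the length trend were run as alternatives. The part of the marker genes in the results below was not tested, and in whole tissue fewer cells of a type and less RNA per cell cannot be told apart.

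All 10 genes were expressed in every mouse. Srsf5, whose protein is held in the nucleus, had the highest summed level (mean 193 TPM, SD 24.1 over the 12 mice), followed by Srsf3 (132 ± 16.5), a small SR protein that also takes part in mRNA export, and Srsf2 (87.8 ± 5.11), a component of nuclear speckles. Srsf7, an SR protein with a zinc knuckle, followed at 66.5 ± 8.57 TPM and Srsf11, an SR-related protein known from the splicing of neuronal microexons, at 60.6 ± 3.07 TPM. Slu7 (53.1 ± 5.08), Srsf1 (52.9 ± 5.32), which promotes the use of nearby 5′ splice sites, and Srsf10 (47.6 ± 4.29), which represses splicing when dephosphorylated, lay close together. Srsf6 (42.2 ± 3.24) and Srsf4 (30.2 ± 3.92), both with a pair of RNA recognition motifs, were lowest. The ranges over the mice of Srsf3 and Srsf2, and of Srsf6 and Srsf4, did not overlap, whereas those of the other neighbours in this order did. The sum over all 10 genes varied little, from 736 to 798 TPM.

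**Figure D1:**
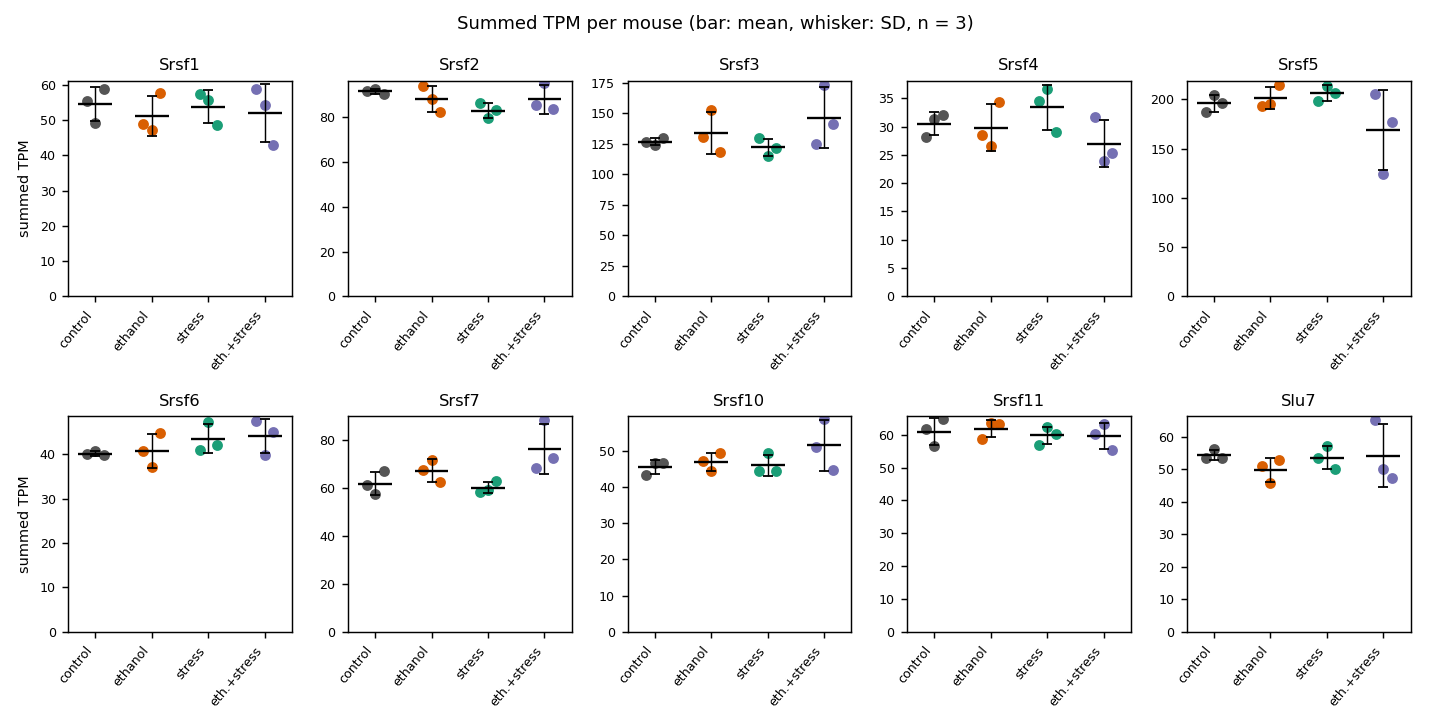
Summed TPM of each gene (vertical axis, starting at 0) in each mouse by group; points are mice, the horizontal bar is the mean and the whisker the SD of 3 mice. Ethanol + stress replicate 2, the middle point of its group, has the highest Srsf3 (173.5 TPM) and Srsf7 (88.4 TPM) and the lowest Srsf5 (124 TPM).

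Protein-coding isoforms made up most of each gene. The retained-intron share of the summed TPM averaged 30.1% for Srsf1 and 29.7% for Srsf11, 12.3% for Srsf6, 10.96% for Srsf2, 7.21% for Srsf5, 4.38% for Srsf3 and 3.20% for Srsf4. The NMD share averaged 18.4% for Srsf6, 14.4% for Srsf2, 12.7% for Srsf4, 10.4% for Srsf3, 8.33% for Srsf1, 7.86% for Srsf11 and 0.11% for Srsf5. Thus the gene with the highest level, Srsf5, had almost no NMD isoform, and its Srsf5-208 was at 0 in 9 of 12 mice. Read pairs that match several isoforms were divided among them by estimate, so isoform levels are less certain than sums. Read pairs that also match near-identical copies of these genes elsewhere in the genome were divided in the same way, which makes the sums uncertain too.

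**Figure D2:**
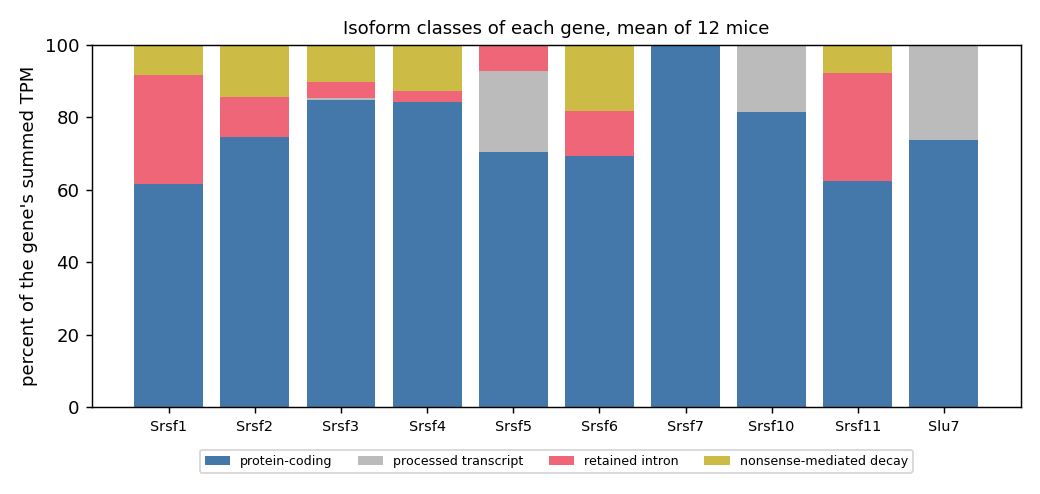
Mean percent of each gene's summed TPM over 12 mice (vertical axis) held by protein-coding, processed, retained-intron and NMD transcripts (stacked colours). Srsf1 and Srsf11 carry the most retained-intron signal (30.1% and 29.7%), and Srsf6 the most NMD signal (18.4%).

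The question of whether the level of these splicing factors differed after early exposure was addressed on the gene sums. None of the 10 genes was called in any comparison, a call being an unadjusted p under 0.01 in limma, and 0, 0 and 1 of them had an unadjusted p under 0.05 in ethanol, stress and ethanol + stress mice against control, beside 3.63%, 2.40% and 5.37% of all genes. Over all 18434 genes tested, 0.678% were called in ethanol mice, 0.51% in stress mice and 0.971% in ethanol + stress mice, and 0.461% for the interaction of ethanol and stress, where 0 of the 10 and 2.69% of all genes had an unadjusted p under 0.05. The log2 fold changes of the 10 genes ranged from -0.13 to 0.12 in ethanol (median 0.02, also 0.02 over all genes), from -0.14 to 0.12 in stress (median -0.02, against 0.00 over all genes) and from -0.24 to 0.30 in ethanol + stress mice (median -0.02, against 0.02). The 95% intervals lay between -0.38 and 0.35 in ethanol, -0.33 and 0.42 in stress and -0.56 and 0.52 in ethanol + stress mice. Changes within the interval of a gene are compatible with these data.

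**Figure D3:**
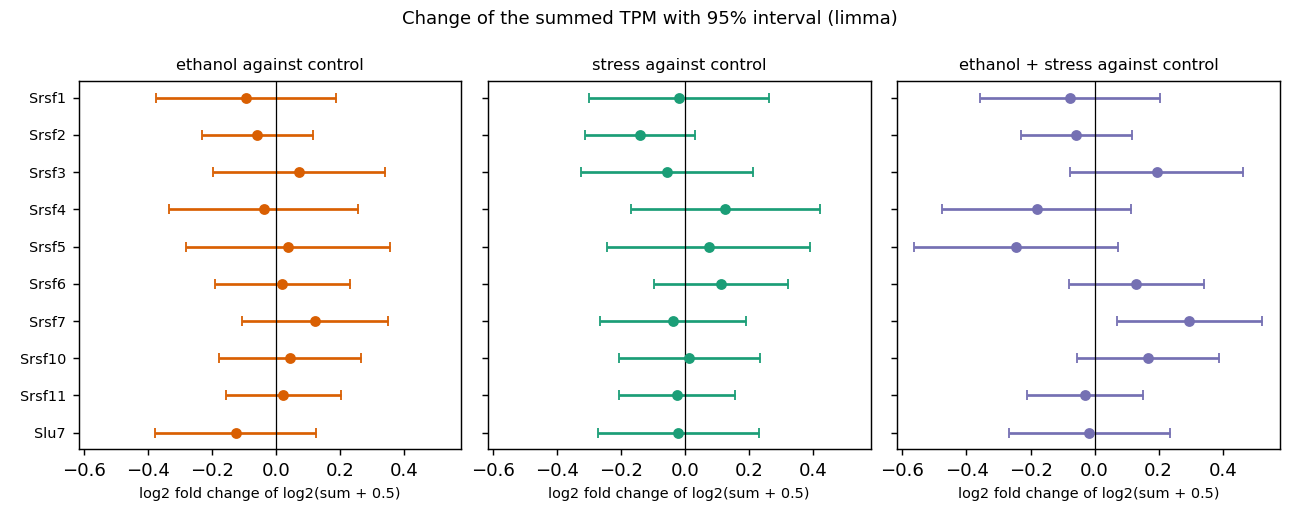
Log2 fold change of each gene's sum against control (horizontal axis, on the scale of log2(sum + 0.5)) with its 95% interval from limma, for ethanol, stress and ethanol + stress mice. The interval of Srsf7 in ethanol + stress mice (0.07 to 0.52) is the only one of the 30 that leaves out 0, and it is not called.

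Srsf7 (chr17:80200080-80207307, minus strand, GRCm38) showed the smallest p among the gene sums. It was 61.3, 57.3 and 67.1 TPM in control mice and 68.5, 88.4 and 72.5 TPM in ethanol + stress mice, all above the control values. The log2 fold change was 0.30 with an SE of 0.10 (limma, adjusted p = 0.791), and it rested in part on ethanol + stress replicate 2, being 0.19 without that mouse and 0.37 without replicate 1, when it was called (adjusted p = 0.235). Only the single Srsf7 transcript in the table stands behind this value, and its version differs from that in the annotation.

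Srsf5 (chr12:80945504-80950507, plus strand) was lowest in the mouse in which Srsf7 was highest. It was 187, 204 and 196 TPM in control mice, against 205, 124 and 177 TPM in ethanol + stress mice, so that the groups overlapped and the difference of -0.24 on the log2 scale (SE 0.15, adjusted p = 0.791 in limma) shrank to -0.04 without replicate 2. Srsf4 followed Srsf5, with 28.2, 31.3 and 32.0 TPM in control mice, against 31.7, 23.9 and 25.3 TPM in ethanol + stress mice. Srsf3 (chr17:29032628-29043373, plus strand) went the other way, from 127, 124 and 130 TPM in control to 124, 173.5 and 141 TPM, with a log2 fold change of 0.19 that was 0.06 without replicate 2. The values without replicate 1 were -0.40 for Srsf5 and 0.30 for Srsf3. With every library set to a common total, the log2 fold changes in ethanol + stress mice were 0.16 for Srsf7, -0.38 for Srsf5 and 0.06 for Srsf3.

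Slu7 (chr11:43433744-43447981, plus strand) is one of the genes that the study names. In its results the study lists Slu7 for ethanol + stress mice, with more promoter methylation and lower expression of a transcript it does not identify. That expression call was a p under 0.01 in sleuth. In the ethanol group Slu7 was below all control mice, at 51.1, 45.8 and 52.8 TPM against 53.6, 56.2 and 53.4 TPM in control. Over all genes, 3.19% were lower in ethanol mice without overlap, and the Slu7 log2 fold change of -0.13 (SE 0.11) had an adjusted p of 0.997 in limma. It was -0.07 without ethanol replicate 2 and -0.21 with a common total. In ethanol + stress mice Slu7 was 65.3, 50.3 and 47.3 TPM, on both sides of the control values. In stress mice Srsf2 lay below all control values (86.4, 79.7 and 83.1 TPM against 91.7, 92.7 and 90.5 TPM), as did 3.39% of all genes, and Srsf6 above them (41.1, 47.3 and 42.2 TPM against 40.1, 40.8 and 39.8 TPM), as did 3.81%. In ethanol + stress mice 5.63% of all genes were higher without overlap, Srsf7 among them. Srsf1, Srsf10 and Srsf11 overlapped control in each group.

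The share of retained-intron isoforms was then compared. For Srsf5, the share was 4.63%, 6.40% and 5.78% in control mice and 8.56%, 8.53% and 8.66% in ethanol mice, so that the 3 ethanol mice lay together above the control values. It was 6.62%, 14.1% and 7.70% in ethanol + stress mice, again above control, and 4.60%, 4.64% and 6.36% in stress mice, which overlapped it. The 14.1% belongs to replicate 2, where the Srsf5 sum was lowest. The intron concerned is the one of 1229 bases shown above.

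Srsf3 had retained-intron shares of 3.34%, 4.00% and 3.14% in control, 5.57%, 6.07% and 4.87% in ethanol and 4.52%, 5.07% and 4.20% in ethanol + stress mice. Both exposed groups lay above control, and stress mice (3.25%, 3.48% and 5.04%) did not. Srsf11 was 25.9%, 18.8% and 30.2% in control and 32.8%, 39.0% and 34.2% in ethanol mice, without overlap, while ethanol + stress mice ranged from 24.0% to 37.3%. For Srsf4 the share was lower in stress mice, at 1.88%, 1.23% and 2.21% against 4.58%, 2.37% and 4.17% in control, which corresponds to less than 1 TPM of its retained-intron isoform in stress mice.

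None of the 7 retained-intron shares was called in limma, where the log2 ratio of the class to the rest of the gene was fitted over all genes with such an isoform. Among the 6605 genes tested for retained introns, 1.57% were called in ethanol, 0.863% in stress, 1.27% in ethanol + stress mice and 0.908% for the interaction, against 0 of 7 members in each, of which 1 had an unadjusted p under 0.05 in each of the 4, beside 7.78%, 4.21%, 6.36% and 4.21% of all genes tested. The smallest p of the members in ethanol was that of Srsf3 (log2 ratio 0.63, SE 0.24, adjusted p = 0.636). Srsf5 in ethanol mice had a log2 ratio of 0.65 (95% interval -0.03 to 1.33) and Srsf11 one of 0.72 (-0.02 to 1.46), which was 0.48 without control replicate 2. In ethanol + stress mice the smallest p was that of Srsf5 (0.73, SE 0.31, adjusted p = 0.769), which was 0.37 without replicate 2. In stress mice it was that of Srsf4, in the other direction (-0.72, SE 0.31, adjusted p = 0.999), and for the interaction also that of Srsf4 (1.18, SE 0.44, adjusted p = 0.997).

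The share was higher without overlap for 3 of 7 members in ethanol mice, beside 12.8% of all genes, and for 2 of 7 in ethanol + stress mice, beside 8.72%. It was lower for 1 of 7 in stress mice, beside 5.03%. The median log2 ratio of the 7 members in ethanol mice was 0.34, while it was 0.22 over all genes tested, and in ethanol + stress mice it was 0.24 against 0.12. Over all genes, the median retained-intron share was 4.68% to 4.78% in control, 5.52% to 7.12% in ethanol, 4.03% to 5.28% in stress and 4.75% to 6.42% in ethanol + stress mice. The highest library medians were those of ethanol replicate 2 (7.12%) and ethanol + stress replicates 2 (6.42%) and 3 (6.12%), the libraries that stood apart in sum and length trend. Ethanol replicates 1 (6.11%) and 3 (5.52%) also lay above control. The blood markers given above were higher in ethanol mice as well. Of 5 nuclear RNAs on the marker list only Snhg11 was analysed here. It was 34.1 to 37.2 TPM in control, 38.02 to 41.6 in ethanol, 23.5 to 36.5 in stress and 28.1 to 38.2 in ethanol + stress mice. It too was higher in ethanol mice without overlap, as were 5.06% of all genes. The part of these markers in the shares was not tested.

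**Figure D4:**
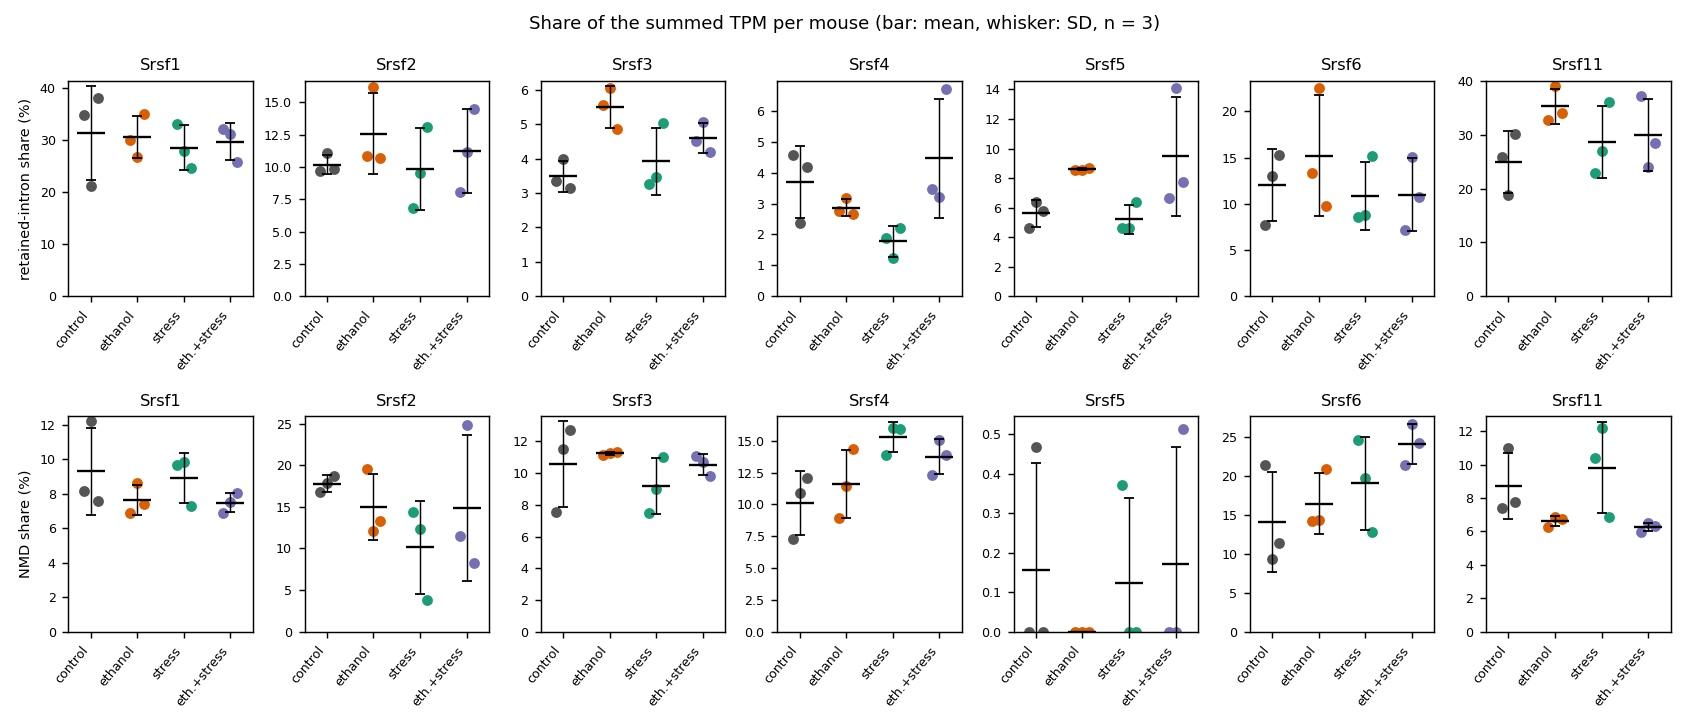
Retained-intron share (top) and NMD share (bottom) of each gene's summed TPM in percent (vertical axes from 0, scaled per gene) in each mouse by group; bars are means and whiskers SDs of 3 mice. The 3 ethanol mice lie above all control mice in the retained-intron share of Srsf3, Srsf5 and Srsf11, and the 3 ethanol + stress mice in the NMD share of Srsf4 and Srsf6.

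The NMD share was compared in the same way. Srsf6 was 21.4%, 9.36% and 11.4% in control and 21.4%, 26.6% and 24.2% in ethanol + stress mice, where the highest control and the lowest exposed value nearly met. Srsf4 was 7.25%, 10.9% and 12.1% in control, 13.9%, 15.99% and 15.9% in stress and 12.3%, 15.04% and 13.9% in ethanol + stress mice, both groups lying above control. Srsf2 was lower in stress mice, at 14.3%, 12.4% and 3.79% against 16.8%, 17.8% and 18.8%. Srsf11 was 7.40%, 11.01% and 7.74% in control and between 6.26% and 6.84% in ethanol and between 5.99% and 6.48% in ethanol + stress mice, below all control values in both.

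Without overlap, 5.3% of the 2565 genes tested had a higher and 4.91% a lower NMD share in stress mice, 6% a higher and 3.9% a lower one in ethanol + stress mice, and 3.86% a lower one in ethanol mice. The members gave 1 of 6 for each of the 2 directions in stress mice, 2 of 6 higher and 1 of 6 lower in ethanol + stress mice, and 1 of 6 lower in ethanol mice. None of the 6 was called in limma, with 0, 0, 1 and 0 at an unadjusted p under 0.05 in ethanol, stress, ethanol + stress and the interaction, beside 4.68%, 5.15%, 5.15% and 4.60% of all genes tested. Of those genes, 1.05% were called in ethanol, 0.975% in stress, 1.29% in ethanol + stress mice and 0.741% for the interaction. Srsf6 in ethanol + stress mice had the smallest p (log2 ratio 0.97, SE 0.39, adjusted p = 0.925), and without control replicate 1, whose share was the highest control value, its ratio was 1.35 and called.

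With both classes combined, 0 of 7 members were called in limma, with 0, 0, 1 and 0 at an unadjusted p under 0.05, beside 7.06%, 4.49%, 6.06% and 4.40% of all genes tested, and 1.54%, 0.864% and 1.3% of 7410 genes were called in ethanol, stress and ethanol + stress mice and 0.918% for the interaction. Without ethanol + stress replicate 1, the combined share of Srsf5 in ethanol + stress mice was called (log2 ratio 0.98). Over the 10 genes together, retained-intron isoforms held 7.29% to 9.47% of the summed TPM in control mice, 9.76% to 11.2% in ethanol, 7.30% to 9.46% in stress and 8.85% to 9.84% in ethanol + stress mice. The NMD isoforms together held 5.95% to 6.75% in control and 5.76% to 6.34% in ethanol mice, which overlapped, 4.57% to 6.47% in stress and 5.68% to 8.37% in ethanol + stress mice.

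Of the 79 single isoforms, 61 passed the filter of 0.1 TPM in at least 6 libraries and were tested. Another 6 were at 0 in every mouse, and 12 were above 0 in too few mice or at too low a level. In ethanol 1 of 61 was called, in stress 1, in ethanol + stress 0 and for the interaction 0, beside 1.26%, 0.914%, 1.21% and 0.854% of 59852 transcripts. At an unadjusted p under 0.05, limma gave 2, 3, 6 and 2 of the 61, beside 5.43%, 3.88%, 5.57% and 4.06% of all transcripts. No adjusted p of these isoforms was below 0.697.

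The isoform called in ethanol mice was Srsf5-212, a transcript of 7 exons and 2720 bases that keeps the 1229-base intron. It was 7.58, 11.6 and 9.86 TPM in control mice, against 14.8, 14.75 and 17.04 TPM in ethanol mice, which is 9.69 ± 2.03 against 15.5 ± 1.32 (mean ± SD). The log2 fold change was 0.67 with an SE of 0.18 (limma, adjusted p = 0.697). How many of all transcripts separate the 2 groups was not computed. The isoform stood on 157 to 400 read pairs per library, far above the floor of 3. In ethanol + stress mice it was 11.6, 16.02 and 12.4 TPM (log2 fold change 0.45, adjusted p = 0.888, and 0.29 without control replicate 1), and in stress mice 8.19, 9.01 and 10.8 TPM. The call in ethanol mice was lost without control replicate 1 (0.51) or ethanol replicate 3 (0.60) and when every library was set to a common total (0.59). The main coding isoform of the gene, Srsf5-201, was 66.3, 72.1 and 75.1 TPM in control mice, against 78.4, 64.1 and 73.9 TPM in ethanol mice, and the groups overlapped.

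The isoform called in stress mice was Srsf11-205, a retained-intron transcript of 437 bases. It was 0.60, 3.36 and 2.31 TPM in control mice, against 0, 0 and 0.57 TPM after stress. The fitted change was -1.83 on the log2 scale (SE 0.58, limma, adjusted p = 1), but only 2 of the 12 libraries held more than 3 read pairs of it, so that most values lie within counting error of 0. It was no longer called without either control replicate 2 or 3 or stress replicate 1 or 2, with values of -1.45 to -1.68, nor with a pseudocount of 0.1 (-3.25), a minimum of 1 TPM or no filter.

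**Figure D5:**
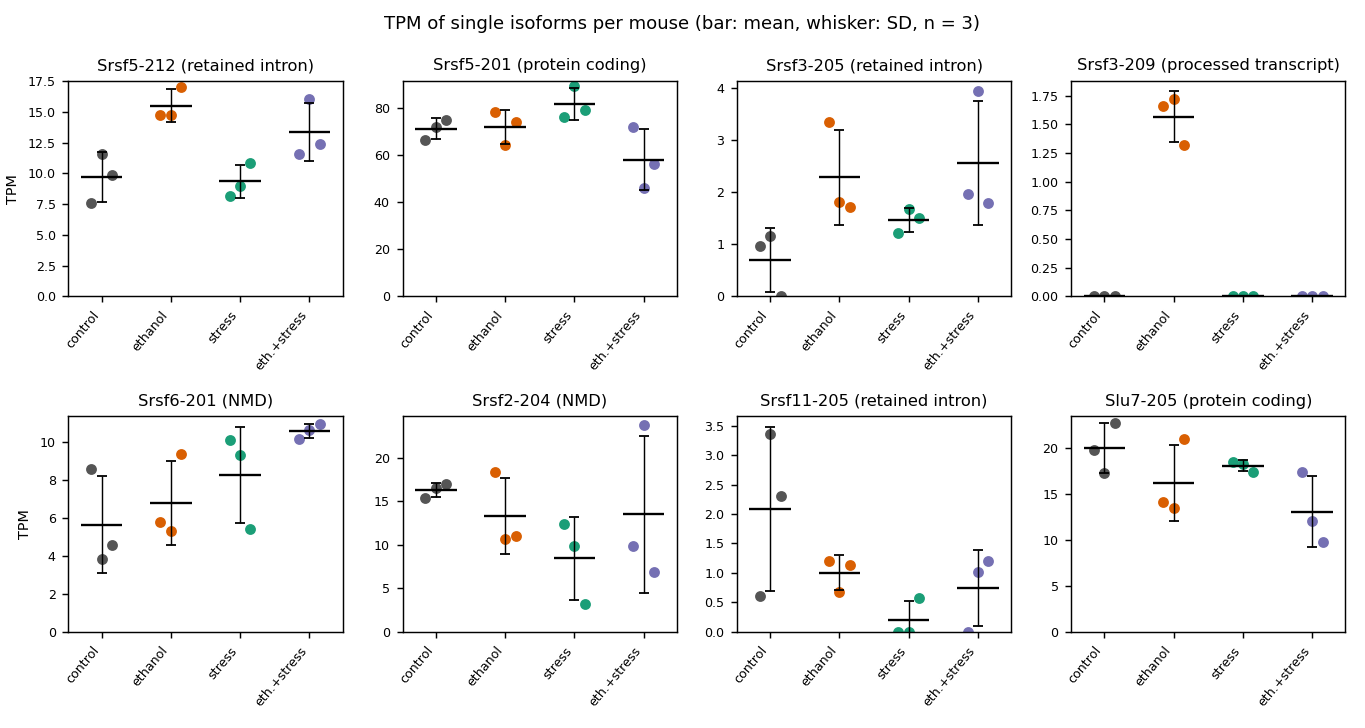
TPM of 8 single isoforms (vertical axes from 0, scaled per isoform) in each mouse by group; bars are means and whiskers SDs of 3 mice. Srsf5-212 is 14.75 to 17.04 TPM in ethanol and 7.58 to 11.6 TPM in control mice, and Srsf3-209 is above 0 in the 3 ethanol mice and at 0 in the other 9.

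Among the isoforms that each gene expressed most in its class, Srsf6-201, the NMD isoform of Srsf6, was 8.56, 3.81 and 4.54 TPM in control mice, against 10.2, 10.6 and 10.9 TPM in ethanol + stress mice. The log2 fold change was 0.93 (SE 0.31, limma, adjusted p = 0.845), and it was 1.25 and called without control replicate 1. Srsf2-204, the NMD isoform of Srsf2, was 15.4, 16.5 and 17 TPM in control mice, against 12.4, 9.84 and 3.15 TPM after stress (-1.09 on the log2 scale, adjusted p = 1), and the difference was -0.54 without stress replicate 3. In ethanol + stress mice it varied from 6.90 to 23.7 TPM. Srsf5-201 was 71.9, 46.2 and 56.2 TPM in ethanol + stress mice, and its interaction of ethanol and stress was -0.52 (SE 0.21, adjusted p = 1). Without ethanol + stress replicate 1 the interaction was -0.69 and called, as was the difference of ethanol + stress mice from control (-0.48, against -0.31 with all mice), which was -0.16 without replicate 2.

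Srsf3-205 and Slu7-205 were chosen for description once their values were known. Srsf3-205, a retained-intron transcript of 2110 bases, was 0.96, 1.15 and 0 TPM in control mice, 3.34, 1.80 and 1.72 TPM in ethanol and 1.97, 3.93 and 1.79 TPM in ethanol + stress mice, on at most 66.8 read pairs. The log2 fold changes were 1.34 (adjusted p = 0.817) in ethanol and 1.46 (adjusted p = 0.822 in limma) in ethanol + stress mice, and these comparisons share the control mice. Without control replicate 3, the mouse at 0, the values were 0.80 and 0.92, and with a pseudocount of 0.1 they were 2.16 and 2.30. The isoform was called without control replicate 2 in both (1.66 and 1.78), and in ethanol + stress mice also without control replicate 1 (1.69), without trend and with the replicate block. Slu7-205, a coding transcript of 16 exons, was 19.8, 17.3 and 22.8 TPM in control mice, against 17.3, 12.1 and 9.80 TPM in ethanol + stress mice, and the groups met at 17.3 TPM. Its log2 fold change of -0.62 (SE 0.21, adjusted p = 0.849) was -0.84 and called without ethanol + stress replicate 1, whereas Slu7-201, the coding isoform with the highest mean, was 25.6, 19.3 and 17.4 TPM against 18.8, 22.3 and 22.0 TPM in control.

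Other genes of the splicing and decay machinery were tested for comparison. They comprised 54 genes in 8 lists: other SR proteins, SR-related proteins, kinases and import factors of SR proteins, other second-step factors, splice site recognition, hnRNPs, NMD factors and the exon junction complex. None of the 54 was called in any of the 4 contrasts, and 1, 1, 2 and 0 had an unadjusted p under 0.05 in ethanol, stress, ethanol + stress and the interaction, beside the 3.63%, 2.40%, 5.37% and 2.69% of all genes given above. Their log2 fold changes had medians of -0.02, -0.02, -0.07 and 0.00. The 3 genes concerned were named after their values were seen. Clk4, a kinase that phosphorylates SR proteins, was 34.0 to 35.6 TPM in control mice, 39.2 to 47.0 TPM in ethanol and 37.1 to 44.9 TPM in ethanol + stress mice, where 5.06% and 5.63% of all genes were higher without overlap. Its relative Clk3 was 25.3 to 30.0 TPM in control mice, against 34.0 to 41.9 TPM in stress mice, where 3.81% of all genes were higher without overlap. Smg9, a factor of the NMD pathway, was 16.1 to 18.9 TPM in control mice, against 12.3 to 16.9 TPM in ethanol + stress mice.

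Across the 12 libraries, the genes whose summed level was most like that of Slu7 were Camkk1 (Pearson r 0.94), Olfml2b (0.94), Iqgap2 (0.94), Stim2 (0.93) and Mas1 (0.93), of 11242 genes compared. Those most like the mean of the 9 Srsf genes were Uhrf2 (0.92), Homer1 (0.88), Uba6 (0.88), Srek1 (0.87) and Rab8b (0.86). This mean is not a pattern that the 9 genes share, since Srsf3 ran against Srsf5 (-0.87) and Srsf4 (-0.82) and with Srsf7 (0.88) over the same libraries. These values describe 12 libraries that also differ in scaling and in the signal of long transcripts, and the highest of many correlations is high by selection.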

How the data were processed

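The authors assigned paired-end reads of rRNA-depleted stranded libraries to Ensembl transcripts of GRCm38 with kallisto and used sleuth; versions are not given in the sources used here. The unit of the deposited signal is not stated in the table. It was taken as TPM per transcript with a scaling between libraries, since the sums range from 889222 to 1173650. Of 115270 transcripts, 113580 matched GENCODE vM21, 112441 with the same version. Read pairs were recovered from the steps of low values of single-transcript genes, of which 79.8% to 83.1% came out within 0.1 of a whole number. They served only for depth and floors, which cover counting error only.

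Values were summed per gene and class. Features reaching 0.1 TPM in 6 or more libraries entered, as log2(value + 0.5), a test with limma 3.58.1 in R 4.3.3 (lmFit, eBayes with trend) in 1 model of the 4 groups without a replicate block, two-sided, with Benjamini-Hochberg adjustment over all features. Fold changes on this scale understate those of low values. Shares were tested as log2((class + 0.5)/(rest + 0.5)). A p under 0.01 was a call, as in the study's methods. The code was tested on simulated data. Python 3.11.15, pandas 2.3.3, numpy 2.4.6, scipy 1.17.1 and matplotlib 3.10.9 were used. Alternatives were pseudocounts of 0.1 and 1, a minimum of 1 TPM, no filter, 2 other scalings, no trend, a replicate block, only the groups compared, a protein-coding denominator for shares, and each replicate left out. Chosen after seeing the data, a lowess trend over transcript length was also subtracted from each library, for gene sums and isoforms only.

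The members, lists and tests were chosen with earlier results of these data known. Named isoforms are the coding, retained-intron and NMD transcript of each gene with the highest mean and every called one, other splicing genes if called, and the 5 likest genes of each pattern. Clk3, Clk4, Smg9, Srsf3-205, Srsf3-209, Slu7-203 and Slu7-205 lie outside this rule and were named after their values were seen.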

Additional observations from a re-analysis of the deposited data

Results flagged for a closer look

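Srsf3-209, a processed transcript of 518 bases, was flagged because its difference between ethanol and control mice was not seen in mice that had also been separated. It was 1.67, 1.73 and 1.32 TPM in the 3 ethanol mice, on 4.62, 4.14 and 3.87 read pairs, and at 0 in the other 9 mice. It failed the filter on low values and was fitted only without that filter, where the log2 difference from control was 2.04 in ethanol mice (limma, adjusted p = 0.000909) and the interaction of ethanol and stress was -2.04 (SE 0.19, adjusted p = 0.016). These fits rest on a spread of 0 in 3 of the 4 groups and on values just over the floor of 3 read pairs. Without the filter it was picked out of 73 isoforms of these genes, and other processed transcripts of Srsf3 were above 0 in a few mice of other groups.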

How the results depend on the processing

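No gene sum or share of the 10 genes was called under any alternative run on it other than leaving out a replicate. The length trend was not removed for shares, and a scaling of whole libraries leaves a share nearly unchanged. These alternatives therefore could not test the shares. For isoforms, 2 were called in ethanol mice without a filter and 0 with a common total. In stress mice 0 were called with a pseudocount of 0.1, a minimum of 1 TPM or no filter. With only the groups compared 0 were called too, but the filter then required all 6 libraries. Srsf11-205, at 0 in stress replicates 1 and 2, failed it and was not fitted there. In ethanol + stress mice 1 was called without trend, and without a filter 1 was called for the interaction. With each replicate left out in turn, 0 to 2 isoforms were called in ethanol, 0 to 1 in stress, 0 to 4 in ethanol + stress mice and 0 to 1 for the interaction, against 0 to 1 gene sums and 0 to 1 shares in ethanol + stress mice and 0 to 0 in the other contrasts. The causes were not tested. Over single genes, isoforms and shares, 6070 values kept their call or stayed uncalled with a shift of less than 1 SE. Another 91 stayed uncalled but shifted by 1 SE or more. A call was gained by 23 values and lost by 10, and 0 reversed a called direction. A common total moved the median of all genes in ethanol + stress mice from 0.02 to -0.09 on the log2 scale, so changes there are relative to that shift.

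With the replicate number as a block, 2 isoforms were called in stress and 2 in ethanol + stress mice, and the block changed no other count of calls. The numbers gave no pairing: deviations of same-numbered libraries correlated at -0.17 to 0.16 (median -0.01), 1 of 18 over 0.1, and 2 of 12 libraries correlated best with their own number.

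Isoforms at 3 read pairs or fewer could not be told from 0, and with 3 mice per group the 95% intervals of the gene sums reach from -0.56 to 0.52 on the log2 scale against control and from -0.80 to 0.56 for the interaction.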

Other observations

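Within Slu7, the short processed transcript Slu7-203 (430 bases, 4 exons), chosen after its values were seen, was 14.5, 15.4 and 8.70 TPM in control mice, against 18.4, 17.5 and 18.9 TPM in ethanol + stress mice, while the mean of the coding Slu7-205 was lower there (13.1 against 20.0 TPM). The group means of the 2 isoforms thus lay on opposite sides of the control means, with a Slu7 sum of 54.3 against 54.4 TPM. Neither isoform was called. Slu7-203 stands on 15.8 to 27.3 read pairs in control and 33.2 to 37.0 in ethanol + stress mice, and its level is therefore far less certain than that of Slu7-205.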
